A study of Mus musculus with 109 samples.

Results

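Microglia with a conditional deletion of the interleukin 10 receptor alpha chain (gene Il10ra) were compared 24 h after a peripheral injection of lipopolysaccharide (LPS) with untreated microglia of the same genotype. The libraries were chosen by their labels: 5 libraries of mutants 24 h after LPS and 9 libraries of untreated mutants, 14 of the 89 RNA libraries of the series. The 14 stand among 48 libraries in 1 table of normalised reads of Il10ra mutants and floxed controls. Both groups were labelled CX3CR1-CreER:IL10Rafl/fl, that is, both copies of Il10ra were floxed and a tamoxifen-inducible Cre recombinase was expressed from the Cx3cr1 locus. The 24 h group had received 2.5 mg/kg LPS into the peritoneum and the other group was labelled steady state. A further pair of groups, 4 libraries 24 h after the same dose and 6 untreated libraries of IL10Rafl/fl mice without Cre, served to measure whether the response differed between genotypes. Microglia were sorted from mouse brain by CD45 and CD11b, and RNA was read with MARS-seq, which tags the 3' ends of transcripts. The labels give neither the age of the mice nor the time of Cre induction. Cells other than microglia that express Cx3cr1 at induction can carry the deletion too, so the genotype does not by itself confine it to microglia.

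LPS, a component of the outer membrane of Gram-negative bacteria, is bound by CD14 and by the pair of TLR4 and MD-2, and the adaptors downstream activate the NF-kB and IRF transcription factors. The resulting wave of cytokines, chemokines and interferon is limited by feedback: inhibitors of NF-kB, SOCS proteins, phosphatases of MAP kinases, proteins that degrade cytokine mRNAs, and interleukin 10 (IL-10). IL-10 binds a receptor of IL10RA and IL10RB chains and acts mainly through the transcription factor STAT3. Resting microglia also hold a homeostatic programme of surface receptors and transcription factors that depends on TGF-beta.

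The libraries held 907938 to 1192315 reads in the table at 24 h and 558878 to 1395977 untreated, and 10204 of 12798 genes were tested. Each library came from 1 of 3 experiments named in its column label. At 24 h, libraries 1 and 2 came from AS_2nd_exp and libraries 3, 4 and 5 from Anat_LPSchallenged; the untreated libraries were 3 each from these 2 and from AS_3rd_LPS. Nothing in the labels says that libraries of a group came from separate animals, so p-values measure the spread between these libraries. The first principal component held 60.6% of the variance and set all 24 h libraries, at 50.4 to 85.2, apart from the untreated libraries, at -46 to -30.6. Library 1 stood apart from the other 24 h libraries: it lay lowest on that component and highest on the second, at 48.9, and was the least changed of the 5 in 1328 of 2825 genes (47.01%) called with a log2 fold change of at least 1 in either direction. The 10 microglia markers were all detected, and all 10 were lower at 24 h, with a summed level of 13970 to 16080 against 32800 to 37790 normalised reads. Summed neutrophil markers stood at 85.85 to 308.3 at 24 h and 455.9 to 1052 untreated, and lymphocyte markers at 186.7 to 256.2 and 590.2 to 779.9. Monocyte markers summed to 50.67 to 211.5 at 24 h and 20.05 to 53.7 untreated, with Fn1 and Ms4a4c higher and Ccr2 lower among 7 tested. Their sums in 24 h libraries 1 to 5 were 211.5, 101.8, 50.67, 101.8 and 89.54, highest in library 1 and lowest in library 3. Border macrophage markers summed to 12.2 to 31.27 and 6.839 to 60.25, and haemoglobin genes to 0 to 405.3 (median 304.4) at 24 h and 0 to 203 (median 3.845) untreated; 3 of 4 haemoglobin genes tested, Hbb-bt, Hba-a1 and Hba-a2, were called higher, and 0 of 3 without library 1. Mitochondrial transcripts made up 0.9449 to 1.712% of reads at 24 h and 0.6334 to 1.096% untreated. The part of other cells in the results was not tested.

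**Figure D1:**
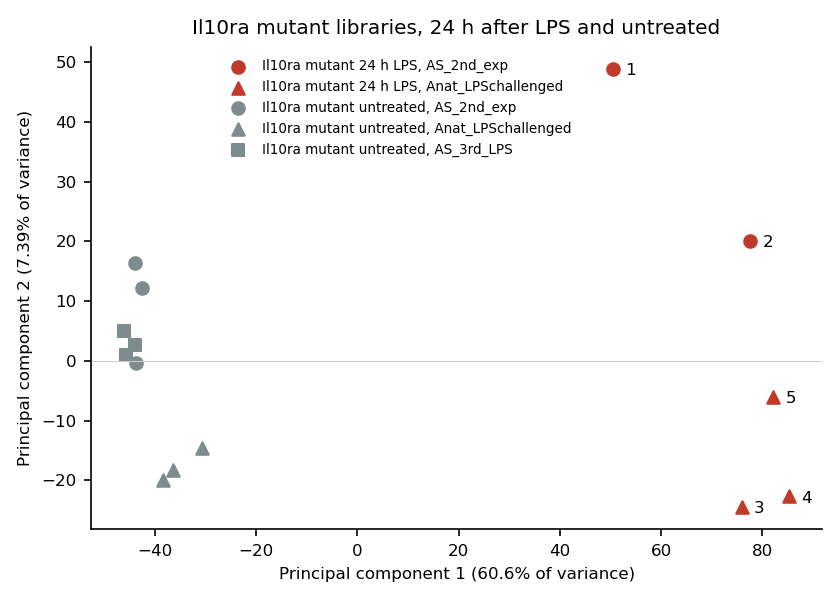
Position of the 14 libraries on the first and second principal components of log2(normalised reads + 1); each point is a library, the colour gives the group and the shape the experiment. The 24 h libraries, numbered 1 to 5, lie between 50.4 and 85.2 on the first component and the untreated libraries between -46 and -30.6; library 1 lies at 48.9 on the second.

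The targeted gene was low in both groups. Il10ra had 24.8, 41.9, 20.6, 15.9 and 32.6 normalised reads in 24 h libraries 1 to 5, against 19 to 124 (median 50.9) in untreated mutants. The floxed controls 24 h after LPS had 353, 342, 389 and 388 normalised reads, above every mutant library. The labels do not say which exons were floxed, so reads that remain do not show whether intact transcript remains. Within the mutants the groups overlapped and the log2 fold change was -0.96 ± 0.34 (limma, adjusted p = 0.021); it was -1.75 within Anat_LPSchallenged and 0.04 within AS_2nd_exp, and the call was lost without 24 h library 3 or 4 or untreated library 7 or 9. Cx3cr1, the fractalkine receptor whose locus carries the Cre, had 1188, 789.7, 454, 438 and 613 at 24 h, against 1895 to 3182 (median 2652) untreated. Every 24 h library lay below every untreated library (log2 fold change -1.90 ± 0.13, adjusted p = 1.79e-10).

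The response covered 55.4% of the genes tested. With limma on log2(normalised reads + 1), experiment as a covariate and Benjamini-Hochberg adjustment, 2678 genes (26.2%) were higher and 2980 (29.2%) lower at 24 h at adjusted p under 0.05, in all 5658 (55.4%). All 24 h libraries lay above all untreated libraries in 1266 genes (12.4%) and below all in 1463 (14.3%). By 4 or more on the log2 scale, 52 called genes rose and 11 fell; by 1 or more, 1106 rose and 1719 fell. The median over all genes tested was -0.03. List counts below that carry no share are to be read against these 26.2% higher and 29.2% lower. The filter asked for at least 5 normalised reads in at least 5 libraries, as many as the 24 h group holds. A gene near 0 in untreated libraries passes it only when high at 24 h, so its rise was partly fixed beforehand. Such genes add to the counts of higher genes, in the lists and over all genes. Of the called genes, 2663 higher and 2958 lower kept their direction in both experiments that hold both groups. Without library 1, 2724 genes (27%) were higher and 3152 (31.2%) lower. In these bulk samples a change can come from fewer cells of a kind or from less RNA per cell, and the 2 cannot be told apart.

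Among the 15 largest rises stood a scavenger receptor, an itaconate-making enzyme, an acute phase protein and a decoy receptor; the rule that named them required that the groups not overlap. Marco, a scavenger receptor for bacteria and particles, had 1643, 561, 42.2, 529 and 313 normalised reads in 24 h libraries 1 to 5, against 0 to 9.15 (median 1.92) in the untreated libraries. Library 1 was the highest and library 3 the lowest, as for the summed monocyte markers and the summed border macrophage markers. All 5 lay above the 9 untreated (log2 fold change 7.04 ± 0.67, adjusted p = 2.45e-08). Acod1, which makes itaconate from a citric acid cycle intermediate, had 259, 437, 41.3, 90.8 and 300 at 24 h, against 0 to 4.28 (median 0.807) untreated. Libraries 3 and 4 were the lowest of the 24 h group, still without overlap (log2 fold change 6.06 ± 0.57, adjusted p = 1.91e-08). Saa3, an acute phase serum amyloid, had 4616, 1581, 203, 1573 and 1395 at 24 h, against 8.55 to 45.8 (median 19.2) untreated. Again library 1 was the highest and library 3 the lowest (log2 fold change 6.03 ± 0.53, adjusted p = 7.31e-09). Il1r2, a decoy receptor that binds IL-1 without signalling, had 859.9, 318, 143, 196 and 150 at 24 h, against 0 to 11.4 (median 2.67) untreated. Library 1 was the highest and the groups did not overlap (log2 fold change 5.73 ± 0.51, adjusted p = 9.52e-09).

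Another set of large rises was lowest in library 1. Zbtb16, a zinc finger transcription factor, had 80, 249, 217, 245 and 204 normalised reads at 24 h, against 0 to 8.01 (median 1.43) untreated. Library 1 lay far below the other 4 and above every untreated library (log2 fold change 5.90 ± 0.47, adjusted p = 2.06e-09). Mt2, a metallothionein that binds zinc and copper, had 876, 4998, 4053, 3846 and 3841 at 24 h, against 17.9 to 82.4 (median 36.9) untreated. Here too library 1 was low and the groups did not overlap (log2 fold change 5.73 ± 0.29, adjusted p = 3.09e-12). Map3k6, a kinase of the MAP kinase cascade, had 148, 262, 283, 332 and 237 at 24 h, against 0 to 5.72 (median 1.92) untreated. Library 1 was the lowest, far above the untreated range (log2 fold change 6.07 ± 0.34, adjusted p = 1.22e-11).

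The rest of the 15 comprised Ccl5, Ch25h, Ehd1, Clec4a1, Ikbke, Sdc4, Oasl1 and Ms4a8a, with log2 fold changes of 4.94 to 5.57. The rule that named them required no overlap between the groups. Ch25h, which turns cholesterol into an oxysterol with antiviral action, had 433, 968, 158, 274 and 1021 at 24 h, against 1.05 to 16 (median 5.77) untreated (log2 fold change 5.57 ± 0.40, adjusted p = 4.01e-10). Ehd1, an ATPase of endocytic recycling, had 523, 557, 196, 397 and 462, against 3.42 to 17.2 (median 6.46). Clec4a1, a C-type lectin receptor, had 982, 631, 118, 216 and 344, against 5.77 to 13.1 (median 9.32), and was highest in library 1. Sdc4, a heparan sulfate proteoglycan, had 156, 272, 131, 267 and 366, against 0 to 13.7 (median 5.13), and was highest in library 5. Ms4a8a, a membrane protein of the Ms4a family, had 177 reads over the 24 h libraries and 2 over the untreated libraries, 7 of which were at 0. Their ratio was 153, with an exact 95% interval of 41.6 to 1270 that covers counting error only.

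**Figure D2:**
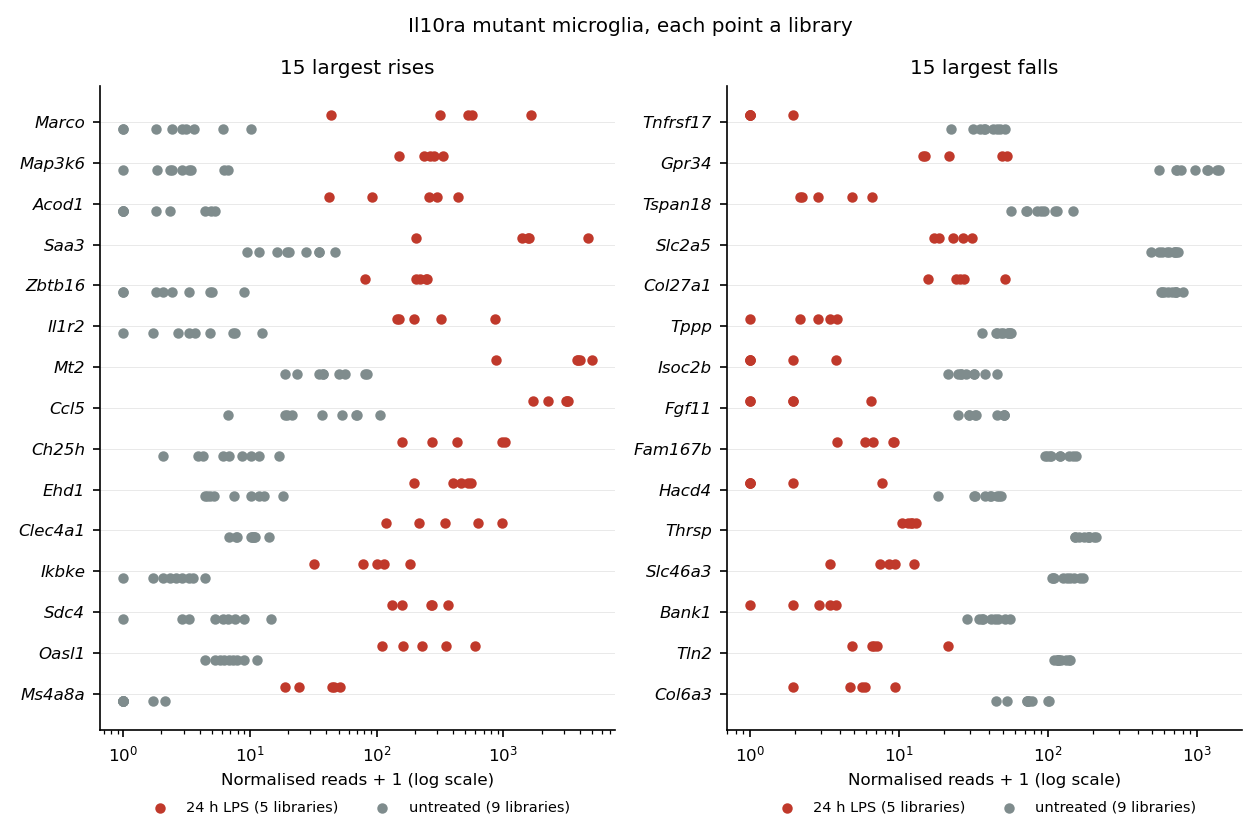
Normalised reads plus 1 on a log axis for the 15 largest rises (left) and 15 largest falls (right) in Il10ra mutant microglia; each point is a library, 24 h LPS in red above untreated in grey. The genes were chosen so that the groups do not overlap, and Marco spans 42.2 to 1643 normalised reads at 24 h.

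Receptors that sense microbial products moved in both directions. Of 20 genes of LPS sensing and TLR adaptors tested, 11 were higher and 4 lower, against 26.2% and 29.2% of all genes, with a median log2 fold change of 0.69. Cd14, the co-receptor that hands LPS to TLR4, had 2188, 2315, 2352, 3057 and 3045 normalised reads at 24 h, against 400.1 to 789.8 (median 503) untreated (log2 fold change 2.13 ± 0.11, adjusted p = 5.19e-12). All 24 h libraries exceeded all untreated libraries by a wide margin, and they were close to each other. Tlr2, the receptor for bacterial lipoproteins, rose to 685 to 1327 at 24 h, against 133 to 210.5 untreated (log2 fold change 2.45 ± 0.16, adjusted p = 1.08e-10). Tlr7, the endosomal receptor for single-stranded RNA, rose to 611 to 965, against 165 to 255 (log2 fold change 2.16 ± 0.13, adjusted p = 2.13e-11). The kinase Irak1, which relays signals of these receptors, rose to 272 to 410, against 176 to 227 (log2 fold change 0.91 ± 0.11, adjusted p = 4.06e-07). The LPS receptor itself was lower: Tlr4 had 38.6, 17.1, 8.45, 17.2 and 10.5 at 24 h, against 29.8 to 48.7 (median 42) untreated, with library 1 inside the untreated range (log2 fold change -1.19 ± 0.22, adjusted p = 0.000136). Ly96, which encodes MD-2, had 1.84, 2.85, 0.938, 3.68 and 4.65, against 11.1 to 25.3 (median 15.7), below every untreated library (log2 fold change -2.09 ± 0.31, adjusted p = 9.06e-06).

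NF-kB genes rose or did not pass the test. Of 20 subunits, inhibitors and kinases, 13 were higher and 0 lower, against 26.2% and 29.2% of all genes, with a median of 1.14. Ikbke, Bcl3 and Tnfaip3 rose most. Ikbke, a kinase of the IKK family that also activates IRF3, had 183, 114, 31, 77.3 and 98.8 normalised reads at 24 h, against 0 to 3.43 (median 1.61) untreated (log2 fold change 5.14 ± 0.38, adjusted p = 6.46e-10). Library 3 was the lowest and the groups were apart. Bcl3, an atypical IkB protein, had 137, 286, 209, 256 and 283, against 7.69 to 23.6 (median 13.4), with a log2 fold change of 3.89 ± 0.23 and an adjusted p of 2.13e-11. Tnfaip3, the ubiquitin-editing enzyme A20, had 284, 973, 297, 381 and 604, against 31.4 to 57.2 (median 40.4), with library 2 the highest (log2 fold change 3.47 ± 0.24, adjusted p = 2.67e-10). Nfkbia, which encodes IkB alpha, had 3615, 7074, 5180, 7020 and 6972, against 613 to 1815 (median 745), with a log2 fold change of 2.62 ± 0.18 and an adjusted p of 1.74e-10. In all 3 the 24 h libraries lay above the untreated libraries. The subunit genes Rela and Nfkb1 were not called, at log2 fold changes of 0.12 ± 0.12 and 0.26 ± 0.15, while Relb rose by 1.45 ± 0.21.

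Inflammatory cytokines followed, with 7 of 12 higher and 3 lower, against 26.2% and 29.2% of all genes, and a median of 1.40. Tnf had 724, 1738, 678, 724 and 1106 normalised reads at 24 h, against 17.2 to 74.7 (median 28.2) untreated. Library 2 was the highest, and all 5 lay far above the untreated range (log2 fold change 4.44 ± 0.27, adjusted p = 4.48e-11). Il12b, which encodes the subunit shared by IL-12 and IL-23, had 49.7, 85.6, 37.5, 55.2 and 97.7, against 0 to 2.62 (median 0.761). It was near 0 in untreated libraries, with 8 reads over the 9, against 313 reads over the 5 at 24 h (log2 fold change 4.75 ± 0.37, adjusted p = 1.61e-09). Osm, a cytokine of the IL-6 family, rose to 121 to 174 at 24 h, against 9.61 to 48 untreated (log2 fold change 2.47 ± 0.23, adjusted p = 2.01e-08). Tnfsf9, the ligand of the costimulatory receptor 4-1BB, rose to 19.3 to 135, against 1.71 to 11.8 (log2 fold change 3.58 ± 0.41, adjusted p = 3.04e-07), and was lowest in library 1. Il6 was not called: it had 6.44, 25.7, 0.938, 6.13 and 9.3 at 24 h, against 4.58 to 15.4 (median 10.7) untreated, and the groups overlapped (log2 fold change -0.27 ± 0.43, adjusted p = 0.619).

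Of 6 anti-inflammatory genes, 3 were higher and 1 lower, against 26.2% and 29.2% of all genes, with a median of 1.19. Beside Il1r2, Il1rn, the antagonist of the IL-1 receptor, had 93.8, 285, 109.8, 338 and 269 normalised reads at 24 h, against 1.92 to 19.6 (median 4.28) untreated (log2 fold change 4.11 ± 0.38, adjusted p = 1.86e-08). Libraries 1 and 3 were low within the 24 h group and still above all untreated libraries. Il18bp, which binds and blocks IL-18, rose to 15.2 to 34, against 1.92 to 11.4 (log2 fold change 2.19 ± 0.35, adjusted p = 2.33e-05). Tgfb1, which encodes TGF-beta 1, fell to 151 to 188 at 24 h, against 282 to 546 untreated (log2 fold change -1.10 ± 0.12, adjusted p = 1.17e-07). Il10 was below the filter, with 4.6, 0.951, 0.938, 1.23 and 0 normalised reads at 24 h, against 0 to 1.31 untreated.

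The chemokines that passed the filter were all called, and 3 CC and 4 CXC chemokines measured did not pass it. A chemokine near 0 untreated passes only when high at 24 h, so that all were called was partly fixed by the filter. Of 10 CC chemokines, 8 were higher and 2, Ccl6 and Ccl24, lower, with a median of 2.43. Without library 1, 9 passed the filter, of which 7 were higher and 2 lower. Ccl5, which attracts T cells and monocytes, had 2239, 3213, 1708, 3147 and 3167 normalised reads at 24 h, against 5.74 to 105 (median 35.8) untreated. All 24 h libraries lay far above the untreated ones, library 3 lowest (log2 fold change 5.57 ± 0.30, adjusted p = 6.95e-12). Ccl3, a chemokine that attracts leukocytes, had 2710, 7769, 3254, 2991 and 5911 at 24 h, against 159.6 to 636 (median 235) untreated. Ccl4, a close relative, had 1333, 5384, 2118, 1925 and 3646, against 129 to 470.2 (median 149.9). Both were highest in library 2 without overlap, at log2 fold changes of 3.58 ± 0.28 and 3.23 ± 0.30 (adjusted p = 1.57e-09 and 1.54e-08). Ccl12, a ligand of CCR2, rose to 619 to 1411, against 109.7 to 202 (log2 fold change 2.49 ± 0.17, adjusted p = 1.7e-10). The 4 CXC chemokines tested were all higher, with a median of 3.10. Without library 1, 3 of the 4 were called higher. Cxcl10, an interferon-inducible ligand of CXCR3, had 670.5, 4940, 708, 719.9 and 2458 at 24 h, against 8.6 to 159 (median 55) untreated. Libraries 2 and 5 held several times the other 3, and all 5 lay above the untreated libraries (log2 fold change 4.10 ± 0.44, adjusted p = 1.41e-07). Cxcl2, which attracts neutrophils, had 129, 352, 82.6, 162 and 322, against 1.05 to 17 (median 6.46), with a log2 fold change of 4.24 ± 0.42 and an adjusted p of 4.7e-08. Cxcl16 rose to 356 to 742, against 107.7 to 146 (log2 fold change 2.11 ± 0.16, adjusted p = 1.09e-09). Cxcl13 overlapped, with 62.5, 18.1, 19.7, 6.13 and 12.8, against 0.761 to 17.2 (median 4.22), with a log2 fold change of 1.65 ± 0.59 and an adjusted p of 0.0235; its call was lost without 24 h library 1 or 2 or untreated library 1 or 3, at log2 fold changes of 0.96 to 1.54.

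Most interferon-response genes rose. Of 35 tested, 33 were higher and 0 lower, against 26.2% and 29.2% of all genes, with a median of 1.99. In 23 every 24 h library lay above every untreated library, against 12.4% of all genes. Oasl1, which is induced by interferon and represses translation of Irf7, had 159, 594, 109.8, 226 and 350 normalised reads at 24 h, against 3.42 to 10.3 (median 5.77) untreated (log2 fold change 5.06 ± 0.34, adjusted p = 1.48e-10). Library 2 was the highest and the groups were apart. Stat2, a subunit of the interferon-activated factor ISGF3, had 226, 505, 506, 343 and 512, against 45.9 to 79 (median 60.7), with a log2 fold change of 2.55 ± 0.17 and an adjusted p of 1.12e-10. Library 1 held the least of the 24 h group. Gbp2, an interferon-inducible GTPase that binds pathogen vacuoles, had 223, 328, 122, 145 and 213, against 6.68 to 27.5 (median 12.2), with a log2 fold change of 3.78 ± 0.30 and an adjusted p of 1.78e-09. Libraries 1 and 2, from AS_2nd_exp, were higher than the other 3. Rtp4, an interferon-induced transporter of receptors, rose to 167 to 534, against 27.4 to 67.5 (log2 fold change 2.95 ± 0.23, adjusted p = 1.41e-09). The 2 not called were Ifi27l2a, at 0.31 ± 0.28, and Oas2, at 0.44 ± 0.60.

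For genes of these chemokine, NF-kB and interferon lists, 300-base promoters (250 bases before to 50 after the start of the gene, the first RefSeq entry of each symbol, GRCm38.p6) were searched for 2 motifs on both strands. The kB-like motif was GGGA and TTCC with any 2 bases between them, the interferon-response-like motif was GAAA, any 2 bases and GAAA again, and matches of one did not overlap those of the other in the promoters shown. Of 27025 promoters in the RefSeq table, 1.43% held the first and 3.49% the second. Of 24 interferon-list genes with a promoter, 15 (62.5%) held the second, and 3 (12.5%) the first. Of the 3 CXC chemokines with a promoter, Cxcl2 and Cxcl10 held the first, as did Nfkbia and Cyld of 16 NF-kB genes. None of 5 CC chemokines held either motif, and of 12 of the 15 largest rises with a promoter, 0 held the first and 1, Saa3, the second. Among all genes called higher, 1.67% held the first and 4.49% the second, against 1.4% and 2.67% of those called lower. A match is a string of letters and not a measured site. The 5 promoters below belong to genes described above and show where the matches lie, in capitals; all are written 5' to 3' on the strand of the gene.
Stat2, chr10:128270248-128270547, plus strand: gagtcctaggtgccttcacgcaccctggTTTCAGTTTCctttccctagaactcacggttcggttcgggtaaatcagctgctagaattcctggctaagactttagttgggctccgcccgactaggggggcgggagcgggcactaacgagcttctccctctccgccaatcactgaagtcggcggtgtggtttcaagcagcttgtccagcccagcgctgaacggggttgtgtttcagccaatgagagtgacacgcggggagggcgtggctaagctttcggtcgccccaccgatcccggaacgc
Gbp2, chr3:142620413-142620712, plus strand: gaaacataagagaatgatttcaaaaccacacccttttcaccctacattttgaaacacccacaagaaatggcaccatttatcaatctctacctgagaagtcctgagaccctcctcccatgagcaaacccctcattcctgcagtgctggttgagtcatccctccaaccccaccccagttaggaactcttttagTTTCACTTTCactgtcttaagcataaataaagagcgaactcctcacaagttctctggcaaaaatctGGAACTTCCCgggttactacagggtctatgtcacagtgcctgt
Cxcl10, chr5:92348840-92349139, minus strand: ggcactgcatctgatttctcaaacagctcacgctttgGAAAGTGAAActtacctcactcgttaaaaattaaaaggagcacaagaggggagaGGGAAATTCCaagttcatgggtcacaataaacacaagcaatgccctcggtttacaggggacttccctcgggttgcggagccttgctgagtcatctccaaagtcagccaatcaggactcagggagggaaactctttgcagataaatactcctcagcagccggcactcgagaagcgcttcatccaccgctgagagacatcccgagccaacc
Cxcl2, chr5:90903649-90903948, plus strand: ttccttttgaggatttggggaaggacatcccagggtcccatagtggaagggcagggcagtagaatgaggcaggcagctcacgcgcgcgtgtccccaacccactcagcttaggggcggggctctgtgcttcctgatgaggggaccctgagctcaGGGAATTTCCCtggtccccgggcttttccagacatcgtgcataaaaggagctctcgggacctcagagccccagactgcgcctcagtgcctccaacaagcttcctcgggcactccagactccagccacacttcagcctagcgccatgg
Nfkbia, chr12:55492598-55492897, minus strand: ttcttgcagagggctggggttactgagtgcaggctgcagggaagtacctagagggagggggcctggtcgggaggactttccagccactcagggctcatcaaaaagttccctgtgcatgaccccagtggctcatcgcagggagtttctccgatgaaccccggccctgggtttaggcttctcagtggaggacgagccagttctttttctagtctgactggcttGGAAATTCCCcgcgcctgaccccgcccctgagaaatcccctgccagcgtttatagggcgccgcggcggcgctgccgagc
In Stat2 the interferon-response-like match begins 222 bases before the start site. In Gbp2 it begins 59 bases before, and a kB-like match begins 7 bases after. In Cxcl10 the 2 matches begin 213 and 159 bases before. The capitals in Cxcl2 cover 2 overlapping kB-like matches, from 97 and 96 bases before, and those in Nfkbia begin 29 bases before.

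STAT3 and several of its listed targets, among them Socs3, Pim1 and Nfil3, were higher at 24 h in the mutants. Of 16 genes of the IL-10 receptor, its kinases, STAT3 and its targets, 10 were higher and 3, Il10ra, Il10rb and Il21r, lower, with a median of 1.70; STAT3 also serves IL-6 family cytokines. Stat3 had 396, 676, 826, 986 and 888 normalised reads at 24 h, against 173 to 259.5 (median 202) untreated, lowest in library 1 and without overlap (log2 fold change 1.66 ± 0.15, adjusted p = 1.71e-08). Socs3, the STAT3-induced inhibitor of gp130 signalling, had 806, 2087, 1917, 2471 and 2135, against 123 to 422 (median 156), with a log2 fold change of 2.80 ± 0.19 and an adjusted p of 1.72e-10. Library 1 was again the lowest. Pim1, a STAT-induced kinase, had 85.5, 301, 285, 368 and 477, against 2.11 to 24.1 (median 11.1), with a log2 fold change of 4.03 ± 0.29 and an adjusted p of 4.82e-10. Il4ra, the IL-4 receptor chain, rose to 651 to 957, against 182 to 233 (log2 fold change 1.93 ± 0.10, adjusted p = 7.86e-12). Nfil3, a transcriptional repressor induced by IL-10, rose to 97.7 to 157, against 6.46 to 19.2 (log2 fold change 3.16 ± 0.23, adjusted p = 6.61e-10). Fcgr1, the Fc receptor CD64, was not called, at -0.25 ± 0.19, and Cd163 was below the filter. The kinase genes Jak1 and Tyk2 were not called, at 0.12 ± 0.13 and -0.19 ± 0.14.

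Feedback inhibitors were mostly higher. Of 12 SOCS and DUSP genes, 8 were higher and 2, Socs5 and Dusp6, lower, with a median of 1.22. Dusp2, a nuclear phosphatase of MAP kinases, had 212, 1059, 210.2, 535 and 495 normalised reads at 24 h, against 9.61 to 42.8 (median 14.5) untreated (log2 fold change 4.33 ± 0.36, adjusted p = 3.77e-09). Libraries 1 and 3 held about the same level and library 2 the highest. Socs2, an inhibitor of growth hormone signalling, had 25.8, 80.9, 103, 168 and 73.3, against 3.58 to 11.8 (median 4.28), lowest in library 1 (log2 fold change 3.38 ± 0.30, adjusted p = 1.12e-08). Dusp1, which inactivates p38 and JNK, had 2161, 1786, 1756, 1853 and 1263, against 104 to 741 (median 220); the groups did not overlap (log2 fold change 2.25 ± 0.29, adjusted p = 1.92e-06). Dusp16, a JNK phosphatase, was 57.9, 109.4, 111.7, 112.8 and 109.3, against 24 to 43.3 (median 36.7), with library 1 the closest to the untreated range (log2 fold change 1.54 ± 0.20, adjusted p = 1.53e-06). Of 11 genes of proteins that act on the stability of cytokine mRNAs, 2 were higher and 0 lower, against 26.2% and 29.2% of all genes. Their median was 0.15, and 0.32 without library 1. Within Anat_LPSchallenged 2 were higher and 2 lower, against 24.2% and 25.5% of all genes, with a median of -0.01. Zc3h12a, the endonuclease regnase-1, rose to 146 to 315, against 23.1 to 62.8 (log2 fold change 2.58 ± 0.21, adjusted p = 3.55e-09). Rc3h2 and Zfp36l2, the next by p, were not called, at 0.42 ± 0.24 and 0.31 ± 0.18. Zfp36, which encodes tristetraprolin, was called with overlap, at 0.56 ± 0.22 (adjusted p = 0.0324); its difference was 1.38 within AS_2nd_exp and -0.10 within Anat_LPSchallenged, and the call was lost without 24 h library 1 or 2 or untreated library 1, 2 or 3.

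Of 13 acute phase genes measured, 9 passed the filter and all 9 were higher, with a median of 3.48. Genes near 0 untreated pass the filter only when high at 24 h, so this count was partly fixed by it. Mt1 had 1540, 5247, 4481, 4544 and 4416 normalised reads at 24 h, against 242 to 430.2 (median 295) untreated (log2 fold change 3.48 ± 0.23, adjusted p = 1.3e-10). As for Mt2, library 1 lay far below the others. Slc39a14, a zinc and iron importer, had 400.1, 288, 234, 264 and 429, against 17.1 to 35.5 (median 20.1), with a log2 fold change of 3.68 ± 0.20 and an adjusted p of 9.6e-12. Fth1, the ferritin heavy chain that stores iron, had 9518, 12770, 10410, 12910 and 12770, against 1821 to 3661 (median 2409), with a log2 fold change of 2.13 ± 0.13 and an adjusted p of 3.26e-11. Even the lowest 24 h library lay above the untreated ones. Of 8 immune enzymes, 4 were higher and 2 lower, against 26.2% and 29.2% of all genes, with a median of 1.44. Without library 1, Acod1 and Ass1 no longer reached the filter of 5 libraries. Of the other 6, 2 were then higher and 3 lower, with a median of -0.38. Ass1, which makes the arginine precursor argininosuccinate, rose to 28.5 to 47.7, against 0 to 4.01 (log2 fold change 4.04 ± 0.42, adjusted p = 7.22e-08). Cybb, the catalytic subunit of the phagocyte NADPH oxidase, had 330.2, 235, 43.2, 173 and 185, against 7.61 to 40.6 (median 14.8), with library 3 close to the highest untreated library (log2 fold change 2.85 ± 0.43, adjusted p = 1.24e-05).

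Costimulatory, adhesion and other surface molecules rose in part, with 9 of 15 higher and 0 lower and a median of 1.98. Without library 1, 1 was lower. The 9 include the scavenger receptor Marco and the myeloid receptor Trem1. Trem1, an amplifying receptor of myeloid cells, had 179, 78, 44.1, 63.8 and 86.1 normalised reads at 24 h, against 0 to 6.68 (median 1.92) untreated (log2 fold change 4.76 ± 0.55, adjusted p = 3.47e-07). Library 1 was the highest and the groups were apart. Cd40, a costimulatory receptor, rose to 13.1 to 54.2, against 0 to 5.72, and Icam1, an adhesion molecule, to 268 to 601, against 120.3 to 206. Their log2 fold changes were 3.38 ± 0.43 and 1.09 ± 0.16 (adjusted p = 1.35e-06 and 8.51e-06). The ligands of CD28 were not called: Cd80 was at 0.43 ± 0.30 and Cd86 at 0.21 ± 0.17.

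MHC class I genes were mostly higher, and class II genes were mostly lower in the fit over both experiments. Of 18 genes of MHC class I and the immunoproteasome, 12 were higher and 1, Psmb9, lower, with a median of 0.67. Within AS_2nd_exp 12 were higher and 0 lower, with a median of 0.99. Within Anat_LPSchallenged 8 were higher and 2 lower, with a median of 0.46. Tap1, which carries peptides into the endoplasmic reticulum, had 325, 467, 369.7, 343 and 447 normalised reads at 24 h, against 99.2 to 136 (median 111.9) untreated (log2 fold change 1.72 ± 0.12, adjusted p = 3.86e-10). Psme1 and Psme2, the subunits of the proteasome activator PA28, rose by 1.01 ± 0.11 and 1.40 ± 0.12 (adjusted p = 2.71e-07 and 7.25e-09). The heavy chain H2-K1 rose to 1183 to 1783, against 361 to 1225, with overlap (log2 fold change 1.23 ± 0.15, adjusted p = 1.11e-06); reads of these heavy chains may be shared among near-identical genes, and the labels do not say how such reads were counted. Of 6 class II genes, 4 were lower and 1, Cd74, higher, with a median of -1.04. Within AS_2nd_exp 2 were lower and 1 higher, against 13.9% and 12.5% of all genes, with a median of -0.22. Within Anat_LPSchallenged 5 were lower and 0 higher, against 25.5% and 24.2%, with a median of -1.48. All 6 differences were greater in AS_2nd_exp. H2-DMb1, a subunit of the peptide exchanger of class II, had 112.2, 52.3, 65.7, 51.5 and 57, against 118 to 211 (median 169.9), without overlap (log2 fold change -1.42 ± 0.18, adjusted p = 9.83e-07). H2-DMa fell to 74.8 to 121, against 124 to 177 (log2 fold change -0.83 ± 0.13, adjusted p = 1.11e-05). H2-Eb1, a class II beta chain, had 25.8, 51.4, 32.8, 27 and 30.2, against 43.6 to 327 (median 137); the groups overlapped (log2 fold change -1.81 ± 0.37, adjusted p = 0.000301) and the difference was -0.51 within AS_2nd_exp and -2.84 within Anat_LPSchallenged. Cd74, the invariant chain, had 309, 520.4, 541, 392.4 and 427, against 69.2 to 468 (median 138), with a log2 fold change of 1.24 ± 0.26 and an adjusted p of 0.000445, with 2.24 and 0.44 within the same experiments.

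**Figure D3:**
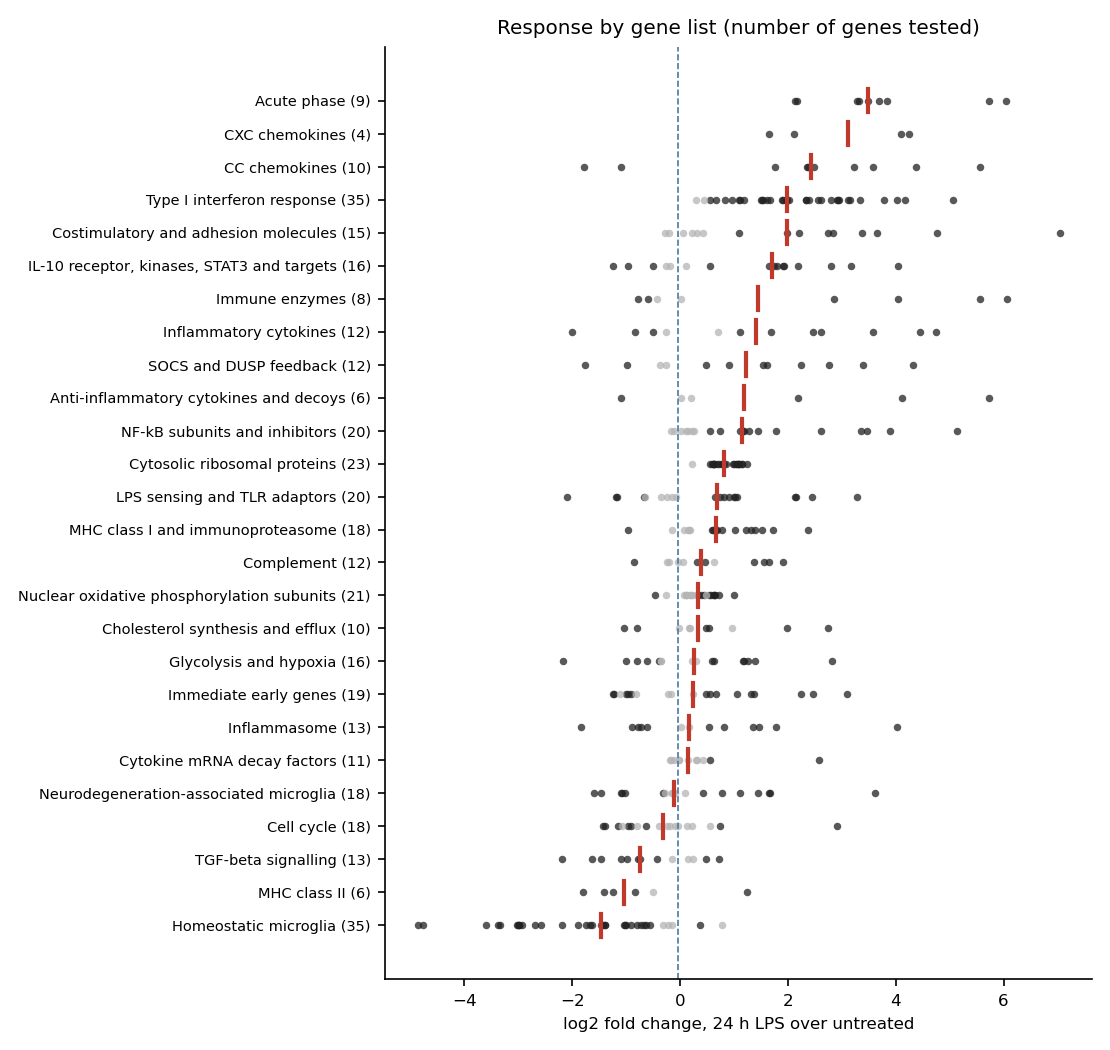
log2 fold change of each tested gene of 26 lists, 24 h LPS over untreated in Il10ra mutants; dark points passed adjusted p under 0.05 and light points did not, red bars are list medians, and the dashed line is the median over all 10204 genes. Acute phase genes have the highest median, 3.48, and homeostatic microglia genes the lowest, -1.47.

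Homeostatic microglia genes were lower almost throughout. Of 35 tested, 30 were lower and 1, Ctss, higher, against 29.2% and 26.2% of all genes, with a median of -1.47. In 29 every 24 h library lay below every untreated library, against 14.3% of all genes. Gpr34, a receptor for lysophosphatidylserine, had 47.8, 52.3, 20.6, 13.5 and 13.9 normalised reads at 24 h, against 552 to 1388 (median 957) untreated. Libraries 1 and 2 held more than the other 3, and no library came near the untreated range (log2 fold change -4.87 ± 0.19, adjusted p = 9.67e-14). Slc2a5, a fructose transporter used as a microglia marker, had 17.5, 25.7, 30, 22.1 and 16.3, against 486 to 736 (median 647). Its libraries were close to each other in both groups (log2 fold change -4.76 ± 0.14, adjusted p = 2.12e-15). P2ry12, the ADP receptor by which microglia sense injury, had 357, 577, 608, 473 and 458, against 3215 to 4653 (median 4039), with a log2 fold change of -3.01 ± 0.13 and an adjusted p of 3.07e-13. P2ry13, a related purinergic receptor, had 221.6, 170.3, 114, 93.2 and 110.5, against 780.3 to 1527 (median 1371), with a log2 fold change of -2.93 ± 0.10 and an adjusted p of 1.09e-14. Both were far below the untreated range; P2ry12 was lowest and P2ry13 highest in library 1. Tmem119, a microglial surface protein, had 1476, 586, 509, 632 and 405, against 3021 to 5940 (median 3677), with library 1 well above the other 24 h libraries (log2 fold change -2.58 ± 0.20, adjusted p = 1.7e-09). The transcription factor Sall1 had 176, 99.9, 109.8, 139.8 and 195, against 302 to 580 (median 464), with a log2 fold change of -1.67 ± 0.16 and an adjusted p of 3.8e-08. The range within the list was wide, since Csf1r, the receptor that sustains microglia, had a log2 fold change of -0.64 ± 0.10.

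TGF-beta signalling genes, on which this programme depends, were lower in 8 of 13 and higher in 2, Smad4 and Tgif1. The shares of all genes were 29.2% and 26.2%, and the list median was -0.74. Tgfbr1, the type I receptor, had 669, 551, 934, 816 and 749 normalised reads at 24 h, against 1478 to 2770 (median 2418) untreated (log2 fold change -1.64 ± 0.13, adjusted p = 1.77e-09). All 24 h libraries lay below the untreated range. Pmepa1, a target and inhibitor of the pathway, had 74.5, 59, 36.6, 39.2 and 61.6, against 185 to 317 (median 250.2), with a log2 fold change of -2.19 ± 0.17 and an adjusted p of 1.72e-09. Smad7, another inhibitory target, fell to 66.6 to 115, against 128 to 228 (log2 fold change -0.97 ± 0.11, adjusted p = 3.41e-07).

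Beyond Gpr34 and Slc2a5, the 15 largest falls included genes of matrix, lipid and membrane proteins. The rule that named the 15 required that the groups not overlap. Tnfrsf17, the BCMA receptor known from plasma cells, had 0, 0, 0.938, 0 and 0 normalised reads at 24 h, against 21.1 to 50 (median 36.5) untreated. It was detected by 1 read over the 24 h libraries and 348 over the untreated libraries, a ratio of 0.00495 with an exact 95% interval of 0.000125 to 0.0278. Col27a1, a fibrillar collagen, had 50.6, 24.7, 26.3, 14.7 and 23.3, against 573 to 801 (median 673), with a log2 fold change of -4.69 ± 0.18 and an adjusted p of 4.09e-14. Tspan18, a tetraspanin, had 1.84, 3.81, 5.63, 1.23 and 1.16, against 55.8 to 146 (median 88.8), with a log2 fold change of -4.84 ± 0.28 and an adjusted p of 2.24e-11. Both were far below the untreated range in every library. Thrsp, a regulator of fatty acid synthesis, had 12, 9.51, 11.3, 11 and 10.5, against 149.9 to 208 (median 184), closely grouped at 24 h (log2 fold change -3.98 ± 0.13, adjusted p = 5.36e-15). Slc46a3, a lysosomal transporter, and Bank1, a signalling scaffold known from B cells, fell, with log2 fold changes of -3.98 ± 0.24 and -3.95 ± 0.28. Fgf11, an intracellular member of the fibroblast growth factor family, and Hacd4, an enzyme of fatty acid elongation, stood at -4.37 ± 0.35 and -4.21 ± 0.42. Tppp, which promotes tubulin polymerisation, and Tln2, a talin that links integrins to actin, stood at -4.42 ± 0.27 and -3.95 ± 0.25. Isoc2b, Fam167b and Col6a3 completed the set at -4.41 ± 0.35, -4.24 ± 0.21 and -3.93 ± 0.24. In the genes of lowest level the ratio rests on few reads: Isoc2b had 4 reads at 24 h and 253 untreated, and Tppp 8 and 428.

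Of 18 genes of microglia in neurodegeneration, 7 were higher and 6 lower, against 26.2% and 29.2% of all genes, with a median of -0.12 that was 0.03 within AS_2nd_exp. Spp1, which encodes osteopontin, had 173, 191, 122, 89.5 and 93 normalised reads at 24 h, against 0 to 18.3 (median 5.77) untreated, without overlap (log2 fold change 3.61 ± 0.40, adjusted p = 2.13e-07). Cd63, a tetraspanin of late endosomes, rose to 1178 to 1450, against 376 to 492 (log2 fold change 1.67 ± 0.10, adjusted p = 2.63e-11). Trem2, a lipid-sensing receptor of microglia, had 888, 1385, 1672, 1350 and 1518, against 2890 to 3816 (median 3595), below every untreated library (log2 fold change -1.47 ± 0.12, adjusted p = 2.83e-09). Cd9, another tetraspanin, fell to 396 to 595, against 896 to 1217 (log2 fold change -1.03 ± 0.11, adjusted p = 2.29e-07). Apoe was not called, at -0.15 ± 0.12. Of 12 complement genes, 6 were higher and 1 lower, against 26.2% and 29.2% of all genes, with a median of 0.39. Without library 1, 3 were lower. C4b had 123, 61.8, 40.4, 65 and 48.8, against 6.84 to 37.8 (median 11.4), and was highest in library 1 (log2 fold change 1.91 ± 0.34, adjusted p = 8.53e-05). The anaphylatoxin receptors C3ar1 and C5ar1 had log2 fold changes of 1.38 ± 0.19 and 1.65 ± 0.32 (adjusted p = 5.07e-06 and 0.000158).

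Translation and metabolism genes showed smaller shifts. Of 23 cytosolic ribosomal protein genes 22 were higher and 0 lower, with a median of 0.81. Rps19, of the small subunit, had 1632, 2134, 1987, 2140 and 2203 normalised reads at 24 h, against 772 to 1051 (median 876) untreated (log2 fold change 1.09 ± 0.10, adjusted p = 8.11e-09). Rpl18, of the large subunit, rose by 1.15. Of 21 nuclear subunits of oxidative phosphorylation, 10 were higher and 1, Sdha, lower, with a median of 0.34; Atp5b, the catalytic subunit of ATP synthase, rose by 1.00 ± 0.09 (adjusted p = 1.63e-08), and Atp5a1, Cox4i1 and Ndufb5 by 0.72, 0.64 and 0.53. Of 16 glycolysis and hypoxia genes, 7 were higher and 5 lower, against 26.2% and 29.2% of all genes, with a median of 0.27; without library 1, 6 were higher and 6 lower, with a median of 0.06, and within AS_2nd_exp the median was 0.08. Pfkfb3, which makes the activator of phosphofructokinase, had 547, 1809, 1090, 969 and 1311, against 127 to 197 (median 157), with a log2 fold change of 2.81 ± 0.20 and an adjusted p of 3.29e-10. Ldha and Pkm, of the last steps to lactate, rose by 1.25 ± 0.11 and 1.16 ± 0.13, while the hexokinase Hk3 fell to 21.6 to 131, against 192 to 237 (log2 fold change -2.17 ± 0.25, adjusted p = 3.14e-07). Of 10 cholesterol genes 4 were higher and 2 lower, against 26.2% and 29.2% of all genes, with a median of 0.33. Within AS_2nd_exp 1 of 11 was higher and 1 lower, against 12.5% and 13.9% of all genes. The desaturase Scd2 rose by 0.54 ± 0.16, and Mylip, a ubiquitin ligase, had a log2 fold change of -1.04 ± 0.12.

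Of 26 listed cell cycle genes, 8 were below the filter. Of 18 tested, 2 were higher and 6 lower, against 26.2% and 29.2% of all genes, with a median of -0.31. Within AS_2nd_exp 2 were higher and 1 lower of 23, against 12.5% and 13.9% of all genes, with a median of -0.66. Within Anat_LPSchallenged 1 was higher and 3 lower of 16, against 24.2% and 25.5%. Cdkn1a, the cyclin-dependent kinase inhibitor p21, had 572, 789, 1066, 1430 and 894 normalised reads at 24 h, against 55.7 to 143 untreated (log2 fold change 2.91 ± 0.16, adjusted p = 7.29e-12). Library 1 was the lowest, without overlap. The replication helicase genes Mcm3 and Mcm7 had log2 fold changes of -0.90 ± 0.18 and -0.96 ± 0.19, and Pcna, the replication clamp, of 0.74 ± 0.16; within AS_2nd_exp neither fall passed the test, and within Anat_LPSchallenged the rise of Pcna did not. Of 13 inflammasome and necroptosis genes, 6 were higher and 5 lower, against 26.2% and 29.2% of all genes, with a median of 0.17. The median was -0.13 without library 1, 0.62 within AS_2nd_exp and -0.37 within Anat_LPSchallenged. Zbp1, a sensor of Z-form nucleic acids, had 205, 166, 103, 85.8 and 131, against 0.761 to 25.2 (median 7.69), with a log2 fold change of 4.02 ± 0.43 and an adjusted p of 1.33e-07. Casp4, the caspase that binds intracellular LPS, rose to 73.6 to 244, against 36.6 to 57 (log2 fold change 1.77 ± 0.21, adjusted p = 4.73e-07). Nlrp3, the inflammasome sensor, and Ripk3, the necroptosis kinase, rose by 1.47 ± 0.20 and 1.36 ± 0.22 (adjusted p = 2.64e-06 and 2.44e-05), while Pycard, the inflammasome adaptor, and Gsdmd, the pore-forming gasdermin, were among those lower.

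Immediate early genes gave different answers in the 2 experiments. In the fit over both, 9 of 19 were higher and 5 lower, against 26.2% and 29.2% of all genes, with a median of 0.25. Without library 1, 7 were higher and 7 lower, with a median of -0.02. Within AS_2nd_exp 12 were higher and 0 lower, against 12.5% and 13.9% of all genes, with a median of 1.28. Within Anat_LPSchallenged 4 were higher and 10 lower, against 24.2% and 25.5%, with a median of -0.84. In 18 of 19 the difference was greater in AS_2nd_exp, as it was in 5328 of 10204 genes tested. The untreated libraries differed between experiments. Fos, a subunit of AP-1, had 1307 to 1684 normalised reads in untreated libraries of Anat_LPSchallenged, 279 to 512 in those of AS_2nd_exp and 472 to 579 in those of AS_3rd_LPS. The 24 h libraries had 491 to 779 in Anat_LPSchallenged and 781 to 856 in AS_2nd_exp. Klf2, a zinc finger transcription factor, had 34.9 to 93.2 at 24 h and 313 to 444 untreated in Anat_LPSchallenged, and 41.4 to 74.2 at 24 h and 32.7 to 60.1 untreated in AS_2nd_exp. The untreated levels of both genes were apart between these experiments by more than the 24 h levels were. Ier3, an early gene that limits NF-kB, had 1369, 1869, 1394, 1513 and 1212 at 24 h, against 101.7 to 263 (median 137) untreated, and rose in both experiments (log2 fold change 3.09 ± 0.19, adjusted p = 3.49e-11). Fosl2, another AP-1 subunit, differed by 2.47 within AS_2nd_exp and by 2.48 within Anat_LPSchallenged, and was the 1 gene of the 19 whose difference was not greater in AS_2nd_exp. Myc rose to 67.6 to 115, against 17.3 to 57.2 (log2 fold change 1.37 ± 0.22, adjusted p = 2.36e-05). The difference between the experiments itself was not tested.

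**Figure D4:**
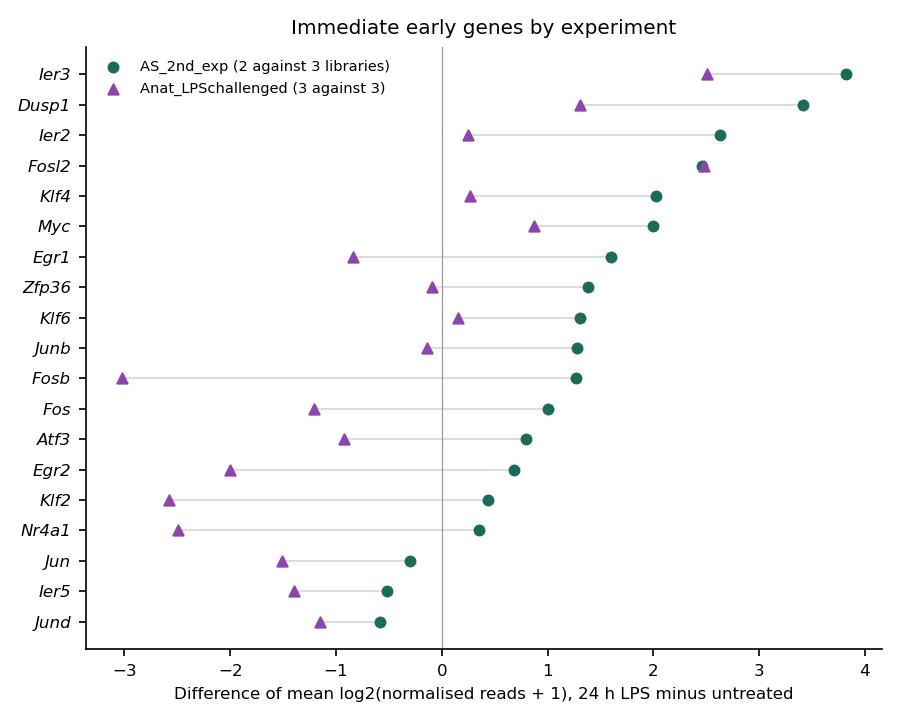
Difference of the mean log2(normalised reads + 1), 24 h LPS minus untreated, for the 19 immediate early genes tested, within AS_2nd_exp (circles, 2 against 3 libraries) and within Anat_LPSchallenged (triangles, 3 against 3). The circle lies to the right of the triangle in 18 of 19 genes, and 16 circles and 7 triangles lie above 0.

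Whether the response at 24 h differed between genotypes was asked by an interaction term over 24 libraries, mutants and floxed controls, with experiment as a covariate, on 10866 genes. No gene passed adjusted p under 0.05 with limma (0% called, smallest adjusted p 0.149), while 1447 had an unadjusted p under 0.05, 510 greater and 937 smaller in mutants. edgeR's quasi-likelihood test also called 0, with 1422 at an unadjusted p under 0.05, and DESeq2 called 42. The count depended on which library was left out. Without mutant 24 h library 1 limma called 489 genes, and without floxed control 24 h library 2 it called 318, of which 218 were the same genes. Leaving out any other single library gave 0 calls, or 1 for mutant 24 h library 4. Genes at unadjusted p under 0.05 numbered 1855, 961 and 786 without control 24 h libraries 1, 3 and 4 in turn. They numbered 1149 to 1249 without mutant 24 h libraries 2 to 5 in turn. Untreated control libraries came from AS_2nd_exp and AS_3rd_LPS and none from Anat_LPSchallenged, so that a part of this term rests on the assumption that experiments shift both genotypes alike. In the same fit 1617 genes (14.9%) were higher and 1722 (15.8%) lower in controls 24 h after LPS.

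The 5 genes of lowest p in this term were Stard9, Mus81, Cyp4f18, Gtf2ird2 and Entpd1, each at adjusted p = 0.149. All 5 passed the test without mutant 24 h library 1, at adjusted p of 0.00118 to 0.0137, and without control 24 h library 2, at 0.00358 to 0.0179. The 5 were picked by this same term, and these 2 omissions gave the most calls of all. Passing there is therefore no separate test of a genotype difference. Cyp4f18, which inactivates leukotriene B4, had 81.8, 9.51, 6.57, 1.23 and 5.82 normalised reads in mutants 24 h after LPS and 3.42 to 11.6 (median 6.68) in untreated mutants. Floxed controls had 32.2, 22.1, 199.9 and 150.4 at 24 h and 0.767 to 6.88 (median 1.89) untreated. All but library 1 of the mutants stayed within or below the untreated range, and every 24 h control library was above it; the difference of the log2 responses was -4.11 ± 0.89. Mus81, a nuclease of DNA repair, had 23.9, 29.5, 9.38, 15.9 and 23.3 and 33.9 to 55.8 (median 39.3) in mutants, and 39.4, 31, 52.5 and 42 and 24.9 to 48.2 (median 31.1) in controls, in the same order of 24 h and untreated libraries. The mutants were lower at 24 h and the controls overlapped, with a difference of -1.31 ± 0.28. Entpd1, the ectoenzyme CD39 that degrades extracellular ATP, was lower at 24 h in both genotypes, with log2 responses of -2.55 ± 0.18 in mutants and -1.40 ± 0.21 in controls. Its difference was -1.15 ± 0.26, and without mutant library 1 and control library 2 in turn it was -1.26 and -1.43. Stard9, of the START lipid-binding family, and Gtf2ird2, a gene of the TFII-I family, had lower log2 responses in mutants than in controls, with differences of -0.91 ± 0.19 and -1.54 ± 0.35.

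For several genes named above the difference was sizeable but did not pass the test. The log2 response of Ch25h was 5.84 ± 0.59 in mutants and 2.78 ± 0.69 in controls, a difference of 3.06 ± 0.85 (adjusted p = 0.2). Its control libraries at 24 h had 185, 436, 17.5 and 38.3 normalised reads. Il12b gave 4.97 ± 0.42 and 2.72 ± 0.49, a difference of 2.25 ± 0.60 (adjusted p = 0.182), with control 24 h values of 21.7, 28.8, 6.18 and 8.41, all below those of the 5 mutant libraries. For Cd14 the difference was 0.91 ± 0.23 (adjusted p = 0.182), with control values of 1537, 1892, 752 and 1391, again below every mutant library at 24 h. C4b went the other way, with a difference of -2.03 ± 0.52 (adjusted p = 0.182) and control values of 82.8, 64.2, 248 and 199.9. These 4 passed the test once mutant library 1 or control library 2 was left out. Since these omissions gave the most calls of all, passing there is no separate test of a genotype difference. P2ry12 responded by -2.97 ± 0.14 in mutants and -2.96 ± 0.16 in controls, a difference of -0.02 ± 0.20. By lists, the difference was above 0 in 18 of 20 NF-kB genes (median 0.41), 10 of 12 SOCS and DUSP genes (median 0.74) and 8 of 12 CC chemokines (median 0.81). It was above 0 in 7 of 35 homeostatic genes (median -0.35), 2 of 12 complement genes (median -0.45) and 0 of 6 class II genes (median -0.45). Untreated mutants differed between experiments in class II genes: H2-Aa had 274 to 472.8 normalised reads in Anat_LPSchallenged and 75.23 to 105.1 in AS_2nd_exp. No untreated control library came from Anat_LPSchallenged, so in class II genes genotype and experiment cannot be fully told apart. Elsewhere the difference was above 0 in 2 of 18 neurodegeneration genes (median -0.17) and 3 of 19 immediate early genes (median -0.35). Two-way splits were seen in 3 of 6 anti-inflammatory genes and 4 of 9 immune enzymes (median -0.24). The lists given here are only a part of those examined. Over all genes the difference was above 0 in 5115 of 10866 (47.1%), with a median of -0.03.

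**Figure D5:**
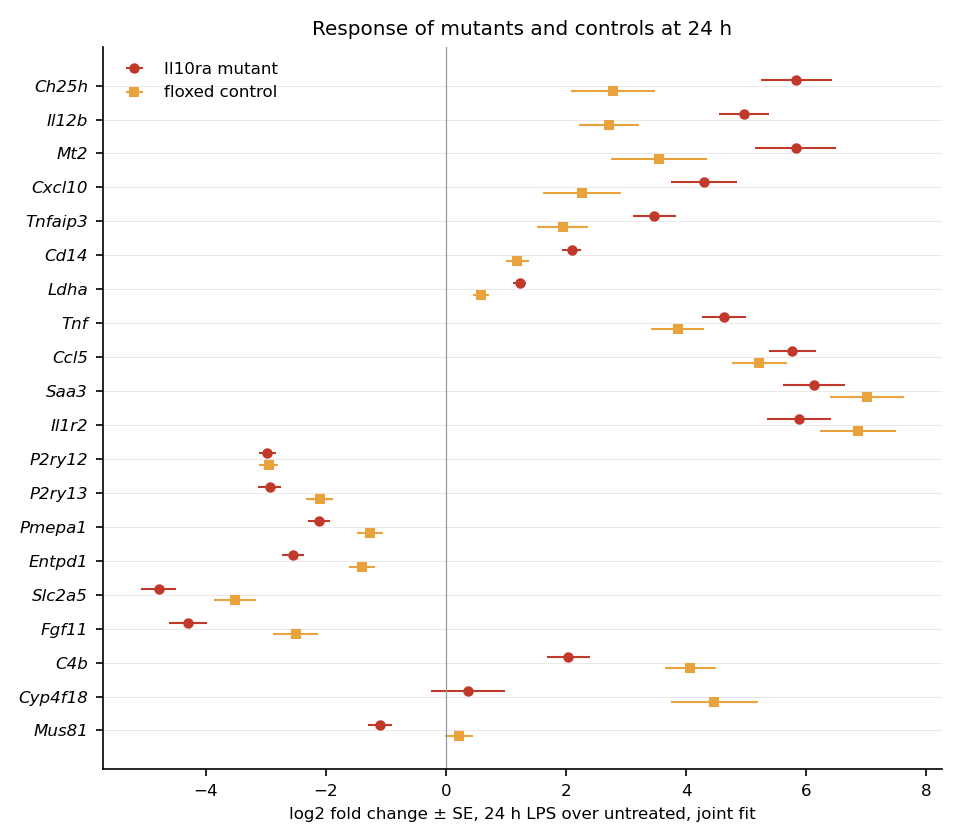
log2 fold change ± SE, 24 h LPS over untreated, from the joint fit, in Il10ra mutants (circles, 5 against 9 libraries) and floxed controls (squares, 4 against 6) for 20 of the named genes, chosen for display after their values were seen. Ch25h, Il12b and Cd14 lie further right in mutants and Cyp4f18 and C4b further right in controls, while P2ry12 coincides; no difference passed adjusted p under 0.05 over all genes.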

How the data were processed

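The values used were reads per gene that the authors had normalised and deposited for 48 MARS-seq libraries, a signal per gene with no length correction; the genome build was mm10, per the submitters' processing notes. The labels name no aligner, counting rule or size-factor method. All values of each library were whole multiples of what 1 read was worth (100% within 0.01), and the read counts recovered from these steps were used for edgeR, DESeq2 and depth. Left out were 18 rows named as dates and 1 row without a name, and 0 columns were unmapped. Groups came from the labels' treatment and genotype; experiments came from the column labels.

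Genes with at least 5 normalised reads in at least 5 of the 14 libraries (4 of 24 for the interaction) were tested on log2(normalised reads + 1), so fold changes of low genes are understated. limma 3.58.1 with a mean-variance trend was used in R 4.3.3, with edgeR 4.0.16 and DESeq2 1.42.0 as alternatives, Benjamini-Hochberg adjustment and a threshold of 0.05; the scripts were tested on simulated data. The alternatives were pseudocounts of 0.5 and 5, filters, quantile normalisation, no covariate, single experiments, a replicate block and each library left out. The members and the gene lists were chosen with earlier results of these data known.

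Named genes were Il10ra, Cx3cr1, the 15 largest rises and 15 largest falls (called, log2 fold change of at least 1, mean of at least 20 in a group, no overlap of the groups), the 4 of lowest p in each list and the 5 of lowest p in the interaction; some of these are not reported here. Others, such as Tlr4, Ly96, Stat3, Tmem119, Sall1, Il6, Fos and Klf2, were chosen after their values were seen. Promoters came from RefSeq, GRCm38.p6. The replicate numbers did not pair the libraries.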

Additional observations from a re-analysis of the deposited data

Results flagged for a closer look

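Of the named genes, 124 were examined in each group of 4 to 10 libraries of the 2 mutant groups for 1 library far from the others, by Dixon's criterion at its 95% value. Of 248 groups 16 were marked; chance marks about 1 in 20, and no difference between mutants and controls and no unused file was marked.

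At 24 h, 6 of these concern library 1. Mt2 had 876.5 normalised reads in it, against 3841 to 4998 in the other 4, and Mt1 had 1540, against 4416 to 5247. Zbtb16 had 80.01, against 203.5 to 249.3, Socs3 had 805.7, against 1917 to 2471, and Dusp16 had 57.94, against 109.3 to 112.8. Tln2 was high in it, at 20.23, against 3.806 to 6.132. In library 3, Fosl2 had 42.22, against 25.58 to 29.49, Stard9 had 58.17, against 36.79 to 40.91, and Tnfrsf17 had 0.9383, which is 1 read, against 0 in the other 4.

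Among untreated libraries, library 2 was low for Hacd4, at 17.3, against 30.78 to 47.49, and high for Tgfb1, at 546, against 282.5 to 394.4. Library 3 was low for Psme1, at 338.5, against 407.6 to 482.8, and high for Cd9, at 1217, against 895.9 to 1033. H2-DMb1 had 117.8 in library 4, against 157.6 to 210.9. Socs2 had 11.79 in library 7, against 3.585 to 6.683. Icam1 had 120.3 in library 8, against 167 to 205.7.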

How the results depend on the processing

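The response counts stayed within 1.5 times under all settings except AS_2nd_exp alone, which has 2 against 3 libraries and called 2716 genes, 1281 higher and 1435 lower. With each library left out in turn, the response calls ranged from 4993 to 5876. Of the named genes run under the alternatives, 2 turned their direction: Il10ra, at 0.036 within AS_2nd_exp, and Zfp36, at -0.10 within Anat_LPSchallenged; beside these, Cxcl13, H2-Eb1, Cd74, Mcm3, Mcm7, Pcna, Scd2 and Ndufb5 lost their call in a setting or more. The cause was not tested. The difference between genotypes gave 5 calls, all 5 lower in mutants, with all libraries of the table in the fit, and 42 with DESeq2, 6 higher and 36 lower, with an adjusted p for 2436 genes. Leaving out 1 library gave 0 to 489 calls, 0 to 105 higher and 0 to 384 lower. Within Anat_LPSchallenged the difference could not be fitted for want of untreated controls. With quantile normalisation 2791 genes were higher and 2753 lower. With a replicate block the response called 5133 genes, 2380 higher and 2753 lower, and the difference 0; same-numbered libraries correlated at -0.0797 to 0.0896 in their deviations from the group means, and none correlated best with its own number. Acod1, Ikbke, Ms4a8a, Il12b and Ass1 have no response value without any 24 h library, since 4 libraries do not meet the filter. Of the list counts 42 moved by over 1.5 times and 270 did not, under settings chosen after seeing the data. Genes near 0, such as Tnfrsf17, are limited by read number.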

Other observations

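The same table holds mutants at 6 h (7 libraries) and 48 h (5 libraries) after LPS, which give the place of 24 h in time, without a test. Genes differed in when they were highest. Cd14 averaged 554 ± 149 normalised reads untreated, 6428 ± 2008 at 6 h, 2591 ± 424 at 24 h and 2536 ± 712 at 48 h (mean ± SD). Its highest mean was the earliest after LPS, as for Cxcl10, which averaged 63.3 ± 44.5, 5537 ± 4149, 1899 ± 1863 and 3158 ± 2516 at the same times. Marco averaged 2.58 ± 2.92, 60.7 ± 38.6, 618 ± 609 and 1874 ± 1303, and Saa3 23.6 ± 12.3, 456 ± 304, 1874 ± 1637 and 3656 ± 1308. Both were highest at 48 h, as was Il12b, with 0.968 ± 1.06, 114 ± 65.8, 65.1 ± 25.4 and 249.5 ± 178. Zbtb16 averaged 2.38 ± 2.57, 60.2 ± 55, 199 ± 69.2 and 53 ± 25.3, with its highest mean at 24 h. P2ry12 averaged 4019 ± 391, 786 ± 342, 495 ± 100.4 and 406 ± 140, lowest at 48 h. The 48 h libraries came from experiments AS_3rd_LPS and AS_DKO_LPS_2ndexp, so that time and experiment cannot be told apart there. At 24 h, library 1 lay outside the other 24 h libraries toward the 48 h mean in Marco, Saa3, Il1r2 and Zbtb16, a description of 4 genes chosen after their values were seen. Other genes of this paragraph were mixed. P2ry12 did the same, while Cxcl10 was lowest in library 1 and had a higher mean at 48 h than at 24 h. Il12b in library 1 lay within the range of the other 24 h libraries, and the Cd14 means at 24 h and 48 h hardly differed.

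Several inducible genes known from LPS-treated macrophages were below the filter at 24 h. Nos2, the inducible nitric oxide synthase, had 0.92, 2.85, 0.938, 0 and 3.49 normalised reads in 24 h libraries 1 to 5, against 0 in all 9 untreated. Ptgs2, the inducible cyclooxygenase, had 1.84, 5.71, 1.88, 0 and 4.65, against 0 to 4.01. Cxcl9, an interferon gamma target, had 0.92, 5.71, 1.88, 8.59 and 13.9, against 0 to 3.85. Csf3, which encodes G-CSF, had 3.68, 16.2, 1.88, 19.6 and 12.8, against 0 to 3.93. Cxcl9 and Csf3 were each above their untreated range in 3 of 5 libraries. These genes were chosen after their values were seen.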
